A study of Mus musculus with 4 samples.

Results

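The cell cycle and CDK inhibitor genes described here are 50 genes, chosen by symbol from textbook knowledge of the cell cycle and found on the array through the gene name of each probe. The choice was made with earlier results of these data known. They are 50 of 29924 gene names on the array and comprise 7 CDK inhibitors, 8 G1 cyclins and kinases, 6 genes of the E2F and RB family, 12 genes of DNA replication and 17 genes of mitosis. Transcripts of whole cochlear ducts of mouse embryos (strain NMRI) were measured at E14.5 on 4 Agilent arrays with 2 colours. Each array compared 1 pool of *Sox2-Tbx2LOF* ducts, labelled as *Sox2(creERT2);Tbx2(fl/fl)*, with 1 pool of control ducts, labelled as *Tbx2(fl/n.d.)* and cre-negative by the study's methods. All dams, of control and mutant embryos alike, received 4 mg of tamoxifen at E12.5. In the mutant pools CreERT2, a Cre recombinase that acts only with tamoxifen, was inserted at 1 *Sox2* allele, so that it is driven by *Sox2* and the duct cells without *Sox2* keep their *Tbx2*. By the mating scheme these embryos also carried the *R26mTmG* reporter, as did their cre-negative littermates. The effects of CreERT2, of the altered *Sox2* allele and of the loss of *Tbx2* cannot be told apart in this design. The ducts were freed of the spiral ganglion and pooled by sex. Arrays 1 and 2 held female and arrays 3 and 4 male pools. On arrays 1 and 3 the mutant carried the dye Cy5 and the control Cy3, and on arrays 2 and 4 the dyes were swapped.

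A cell passes through the division cycle by activating cyclin-dependent kinases (CDKs) in order. D-type cyclins with CDK4 and CDK6 inactivate RB, which frees E2F factors to switch on the genes of DNA replication, and cyclin B with CDK1 drives mitosis. CDK inhibitors of the CIP/KIP family (*Cdkn1a*, *Cdkn1b*, *Cdkn1c*) and of the INK4 family (*Cdkn2a* to *Cdkn2d*) hold these kinases back. In the cochlear duct the prosensory cells, from which hair and supporting cells arise, leave the cycle before they differentiate, and *Cdkn1b* (p27Kip1) is known as the inhibitor that marks this exit, while neighbouring epithelium and the surrounding mesenchyme still divide.

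Between 69.2% and 72.0% of probes were well above background per array and dye, and no gene spot was saturated. *Esr1*, whose ligand-binding part is fused to Cre in CreERT2, had a level at least 4.24-fold above the controls in the mutant pools and was not above background in any control pool. *Tbx2* had log2 ratios of -0.25, -0.05, -0.13 and -0.03 on arrays 1 to 4, below 0 on 4 of 4 arrays, and did not pass the test (mean -0.12, adjusted p = 0.124). *Sox2* had a mean ratio of 0.01 (adjusted p = 0.935). Ratios correlated across tested probes at 0.653 and 0.579 between the pairs of arrays labelled in the same dye direction and at -0.106 to 0.092 between arrays with swapped dyes, so a dye term was part of each test.

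Where cell cycle genes changed in *Sox2-Tbx2LOF* ducts they were mostly lower, by small amounts, with the inhibitor *Cdkn1a* as the one that was higher. Of the 50 genes, 49 were tested, and all 49 were well above background in all 8 measurements. *Ccne2*, cyclin E2, was not tested, as its probe was above background in 1 mutant and 2 control pools. A gene was called changed at an adjusted p below 0.05 over all 21042 genes tested. Of the 49, 11 changed, 1 higher and 10 lower. That is 22.4%, where 5.18% of all tested genes changed (2.26% higher and 2.92% lower). The genes were not chosen blind to these data, which limits this and the following comparisons with all genes. The log2 ratio (mutant over control) lay below 0 for 44 of 49 genes, against 48.3% of all tested genes, and its median was -0.11, against 0.00 for all tested genes. The differences were small. None of the 49 reached a fold of 1.5 whatever its p. Of all tested genes, 0.442% reached that fold with an adjusted p below 0.05, a share too low for 49 genes to be read against. An unadjusted p below 0.05 was found for 31 of 49, and for 4258 of all 21042 tested genes. The level in the 4 mutant pools did not overlap with that in the 4 control pools for 6 genes (12.2%, against 4.28% of all tested genes), namely *Cdkn1a*, *Ccnd1*, *E2f1*, *Ccna2*, *Cenpe* and *Foxm1*. In bulk tissue, fewer cells of a type and less RNA per cell cannot be told apart.

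The calls rested on the 4 arrays together. No gene of the 49 passed without array 3 (20 at an unadjusted p below 0.05), where 2.11% of all tested genes passed. Without array 1, 2 or 4 there were 4, 5 and 5 that passed, where 1.95%, 6.07% and 3.3% of all tested genes passed. Without the dye term 1 gene passed, *Cdkn1a* (1.25% of all tested genes passed). With Agilent's processed signals 3 passed (2.93% of all), and with the values of the deposited table *Cdkn1a* alone passed (1.97% of all). With the 2 channels compared without pairing the pools of an array none passed (19 at an unadjusted p below 0.05), where 1.03% of all tested genes passed. The unadjusted share over all genes was not counted in these alternatives. The direction moved less. The ratio kept its sign in the test as described and in 14 alternatives, each with 1 value per gene from at least 3 arrays, for 42 of 49 genes, and the others were *Ccnd2*, *Ccnd3*, *Cdk4*, *Cdk6*, *Kif11*, *Mcm5* and *Rbl2*. Some of these alternatives leave the ratio as it is, so its sign could not change there. They are no dye term, separate channels and other filters on dim probes.

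**Figure D1:**
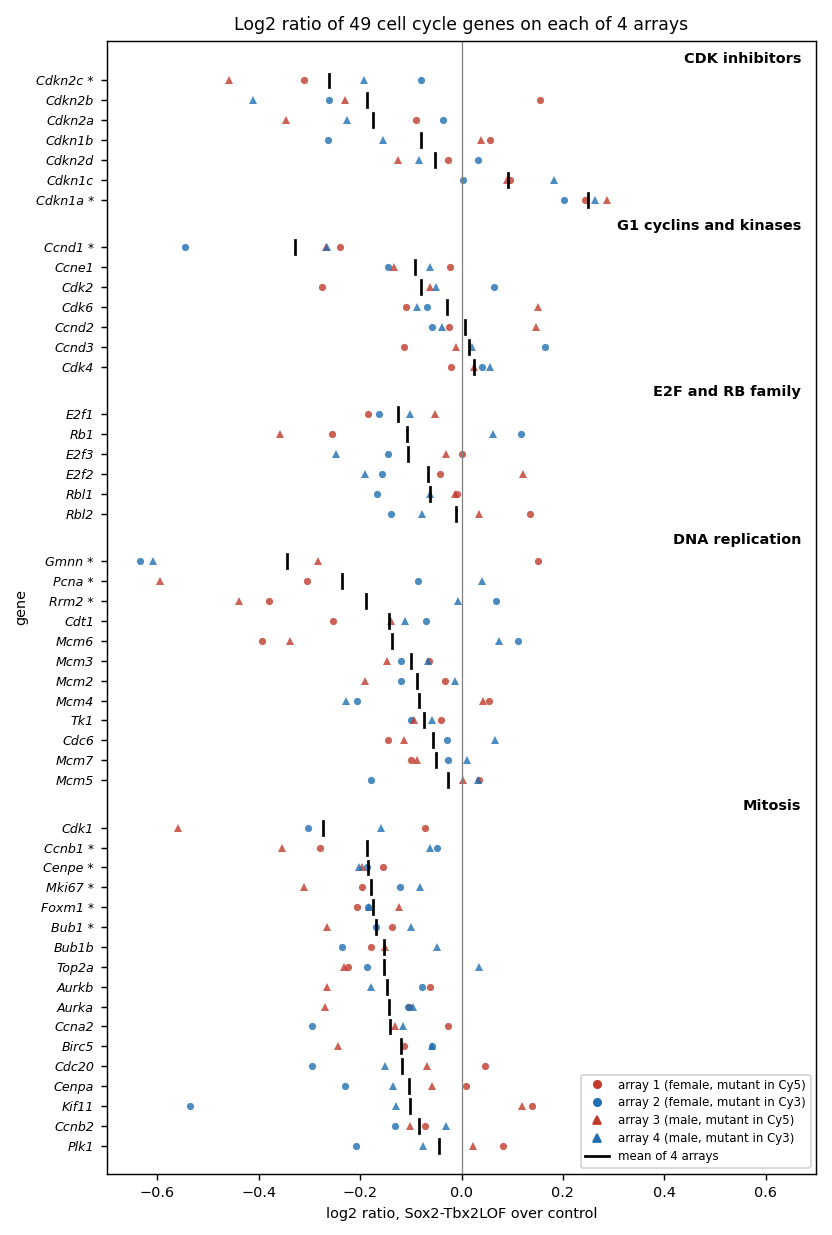
Log2 ratio of *Sox2-Tbx2LOF* over control (x axis) of each of the 49 tested genes (y axis, by group), on arrays 1 and 2 (female pools, circles) and 3 and 4 (male pools, triangles), in red where the mutant was labelled with Cy5 and in blue with Cy3. The black bars are means of 4 arrays, the asterisks mark the 11 genes that changed, and 44 of 49 means lie left of 0.

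Promoters were read for motifs known from cell cycle genes because the mean ratios of all tested mitosis, replication and E2F and RB family genes lay below 0. Those of the CDK inhibitors and of the G1 genes lay on both sides of 0. RefSeq promoters (GRCm38.p6; 250 bases before to 50 after each annotated start) were at hand for 40 of the 50 genes, not for *Cdkn1c*, *Ccnd1*, *Ccnd2*, *Ccne2*, *Rb1*, *Mcm4*, *Gmnn*, *Ccna2*, *Aurkb* and *Foxm1*. The motifs, searched on both strands, were TTTGAA (the core of the CHR element of mitosis genes), CCAAT (bound by NF-Y) and TTTCCCGC or TTTGGCGC (E2F motifs). No match shared a base with a match of another kind in these promoters. Of 14 mitosis promoters, 10 held TTTGAA (71.4%, against 20.2% of 27025 genes), 13 held CCAAT (92.9%, against 41.1%) and none held an E2F motif (1.80% of all). Of 10 replication promoters, 6 held an E2F motif (60.0%), 7 held CCAAT and 1 held TTTGAA. Among 6 CDK inhibitors 1 held an E2F motif, 4 held CCAAT and 1 held TTTGAA, and among 5 G1 genes the counts were 1, 2 and 0. Among 5 genes of the E2F and RB family they were 2, 2 and 3. Of the 8 changed genes with a promoter, 7 held CCAAT, 1 held TTTGAA and none held an E2F motif. A match is a description of these letters, not a bound site.

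The 150 bases before the annotated start are given, 5′ to 3′, for 7 of the changed genes, and for *Cdk1* and *Mcm6*, which did not change, as examples of the CHR core with CCAAT and of the E2F motif. Motifs are in capitals, and the reverse complements of CCAAT and TTTGGCGC read ATTGG and GCGCCAAA.
*Mki67* (chr7:135716380-135716529, minus strand): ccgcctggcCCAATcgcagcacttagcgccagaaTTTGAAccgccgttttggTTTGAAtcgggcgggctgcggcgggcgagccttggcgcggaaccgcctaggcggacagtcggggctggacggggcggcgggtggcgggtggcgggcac
*Bub1* (chr2:127831860-127832009, minus strand): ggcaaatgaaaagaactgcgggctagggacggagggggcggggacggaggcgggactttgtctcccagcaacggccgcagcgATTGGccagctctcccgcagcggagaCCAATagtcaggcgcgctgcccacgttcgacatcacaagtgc
*Ccnb1* (chr13:100786487-100786636, minus strand): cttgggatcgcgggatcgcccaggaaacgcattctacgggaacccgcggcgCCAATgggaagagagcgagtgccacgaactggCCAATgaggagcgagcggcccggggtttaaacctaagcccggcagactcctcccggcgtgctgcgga
*Cenpe* (chr3:135212413-135212562, plus strand): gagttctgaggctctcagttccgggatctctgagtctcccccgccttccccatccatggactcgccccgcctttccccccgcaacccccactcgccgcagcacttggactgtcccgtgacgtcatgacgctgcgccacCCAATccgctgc
*Cdk1* (chr10:69352913-69353062, minus strand): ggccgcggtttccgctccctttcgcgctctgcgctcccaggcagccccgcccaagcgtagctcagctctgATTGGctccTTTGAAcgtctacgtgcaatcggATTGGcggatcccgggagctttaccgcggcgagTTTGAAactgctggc
*Pcna* (chr2:132253181-132253330, minus strand): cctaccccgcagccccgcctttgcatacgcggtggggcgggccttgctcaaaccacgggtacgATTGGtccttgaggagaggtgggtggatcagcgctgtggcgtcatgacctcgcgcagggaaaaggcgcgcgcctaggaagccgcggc
*Rrm2* (chr12:24708104-24708253, plus strand): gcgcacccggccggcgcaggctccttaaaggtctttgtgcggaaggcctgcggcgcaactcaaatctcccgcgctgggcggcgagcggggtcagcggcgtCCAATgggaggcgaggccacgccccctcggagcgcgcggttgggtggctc
*Mcm6* (chr1:128359706-128359855, minus strand): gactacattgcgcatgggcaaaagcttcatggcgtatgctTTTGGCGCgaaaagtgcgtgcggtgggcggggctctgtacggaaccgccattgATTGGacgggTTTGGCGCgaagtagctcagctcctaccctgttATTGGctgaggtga
*Cdkn1a* (chr17:29090829-29090978, plus strand): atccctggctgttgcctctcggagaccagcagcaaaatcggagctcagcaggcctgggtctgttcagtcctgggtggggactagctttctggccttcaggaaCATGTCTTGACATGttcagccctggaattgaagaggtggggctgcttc
In the *Cdkn1a* sequence, before the more distal of its 2 annotated starts, the capitals mark CATG, 6 bases of any kind and CATG again, the core of a p53 motif. This motif was added after the sequences had been read. It lay 48 bases before that start, was held by no other of the 40 genes and was held by 0.833% of all genes. The most upstream *Cdkn1a* probe, described below, was above background in no pool, and its place relative to these starts was not analysed. Which of the 2 starts gave the measured *Cdkn1a* RNA was not tested. *Mki67* held TTTGAA at 116 and 98 bases before its start, *Cdk1* at 71 and 15 bases, and *Mcm6* TTTGGCGC at 110 and 47 bases. *Bub1*, *Ccnb1*, *Cenpe*, *Pcna* and *Rrm2* held CCAAT alone.

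Among the 7 CDK inhibitors 1 rose, 1 fell and 5 did not pass the test. *Cdkn1a* encodes p21, an inhibitor of several CDKs and a known target of p53. Its log2 ratios were 0.24, 0.20, 0.29 and 0.26 on arrays 1 to 4 (mean 0.25 ± 0.04, SD, n = 4, probe at chr17:29237377-29237436, mm9). On the normalized log2 scale its level was 11.60, 11.77, 11.66 and 11.77 in the mutant pools and 11.35, 11.57, 11.37 and 11.51 in the control pools. All 4 mutant pools were higher than all 4 control pools, by a 1.19-fold mean difference (SE 0.03 on the log2 scale, adjusted p = 0.00722), and this was the one gene of the 49 that rose. A further *Cdkn1a* probe, above background in 4 mutant and 2 control pools, had a ratio of 0.20 and did not pass. The most upstream *Cdkn1a* probe (chr17:29227986-29228045, mm9) was above background in no pool and was not tested. The call was lost without array 1 or array 3 and with unpaired channels, and its adjusted p ranged from 0.00696 to 0.224 over the test and its alternatives.

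*Cdkn2c* encodes p18INK4c, an inhibitor of CDK4 and CDK6. Its log2 ratios were -0.31, -0.08, -0.46 and -0.19 (mean -0.26 ± 0.16, SD, n = 4, chr4:109333508-109333567, mm9), below 0 on 4 of 4 arrays. The level was 9.60, 9.34, 9.34 and 9.36 in the mutant pools and 9.91, 9.41, 9.80 and 9.55 in the control pools, so that the lowest control pool lay below the highest mutant pool. The difference passed the test (1.20-fold lower, SE 0.04, adjusted p = 0.0130). The change was larger where the mutant was labelled with Cy5 (-0.38) than with Cy3 (-0.14). *Cdkn2c* passed in 10 of 14 alternatives. Its call was lost without array 3, without the dye term, with unpaired channels and with the deposited table.

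The other 5 inhibitors did not pass. *Cdkn1b*, the p27Kip1 of prosensory exit, had ratios of 0.06, -0.26, 0.04 and -0.16 (mean -0.08, SD 0.16, adjusted p = 0.265). Its sign followed the dye, above 0 on the arrays with the mutant in Cy5 and below 0 on the others, and a further probe had a mean of -0.01. *Cdkn1c* (p57Kip2) had 0.09, 0.00, 0.09 and 0.18 (mean 0.09, SD 0.07, adjusted p = 0.253), above 0 on each array. *Cdkn2a*, which gives rise to p16INK4a and p19ARF, had -0.09, -0.04, -0.35 and -0.22 (mean -0.17, SD 0.14, adjusted p = 0.114). *Cdkn2b* (p15INK4b) had 0.16, -0.26, -0.23 and -0.41 (mean -0.19, SD 0.24, adjusted p = 0.146). *Cdkn2d* (p19INK4d), an inhibitor known to keep hair cells out of the cycle later in life, had -0.03, 0.03, -0.13 and -0.08 (mean -0.05, SD 0.07, adjusted p = 0.525). The mean ratio was lower in male pools for *Cdkn2a*, *Cdkn2b*, *Cdkn2c* and *Cdkn2d*, and lower in female pools for *Cdkn1a*, *Cdkn1b* and *Cdkn1c*. The gap was largest for *Cdkn2b*. None of these passed the test of the sex difference given further on.

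Of the 7 tested G1 cyclins and kinases, 1 fell and none rose, and 4 of 7 had a ratio below 0 (median -0.03). *Ccnd1* encodes cyclin D1, the partner of CDK4 and CDK6 that links growth signals to the cycle. Its log2 ratios were -0.24, -0.55, -0.27 and -0.26 (mean -0.33 ± 0.14, SD, n = 4, chr7:152116202-152116261, mm9). The level was 15.78, 15.50, 15.64 and 15.58 in the mutant pools and 16.02, 16.04, 15.91 and 15.84 in the control pools. Every mutant pool lay below every control pool (1.26-fold lower, SE 0.05, adjusted p = 0.0103). Array 2 stood apart from the other arrays. Without it the mean ratio remained below 0, as in the 14 alternatives, where it ranged from -0.40 to -0.26. *Ccnd1* passed in 9 of 14 alternatives. Its call was lost without array 1 or array 3, without the dye term, with unpaired channels and with the deposited table. *Cdk4* had the highest ratio of the group, with -0.02, 0.04, 0.03 and 0.06 (mean 0.03, SD 0.03, adjusted p = 0.737). The other D-type cyclins *Ccnd2* and *Ccnd3* had mean ratios of 0.01 and 0.02, *Cdk6* -0.03, *Cdk2* -0.08 and *Ccne1* (cyclin E1) -0.09, and none of these passed. The group's median was 0.04 without array 1 and -0.08 in female arrays, so it had no stable sign.

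None of the 6 genes of the E2F and RB family passed, while 3 had an unadjusted p below 0.05 (4258 of all 21042 tested genes had). All 6 had mean ratios below 0, with a median of -0.09. *E2f1*, an activator of replication genes, was lowest, with -0.18, -0.16, -0.05 and -0.10 (mean -0.12 ± 0.06, SD, n = 4, adjusted p = 0.117). The mutant and control pools did not overlap, but the difference did not pass. *Rbl2*, which encodes the RB relative p130 of resting cells, had the ratio nearest 0, with 0.14, -0.14, 0.03 and -0.08 (mean -0.01, SD 0.12). *E2f2*, *E2f3*, *Rb1* and *Rbl1* lay between -0.11 and -0.06. The ratios of *Rb1* were -0.26 and -0.36 with the mutant in Cy5 and 0.12 and 0.06 with the mutant in Cy3, opposite in sign between the dye directions.

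**Figure D2:**
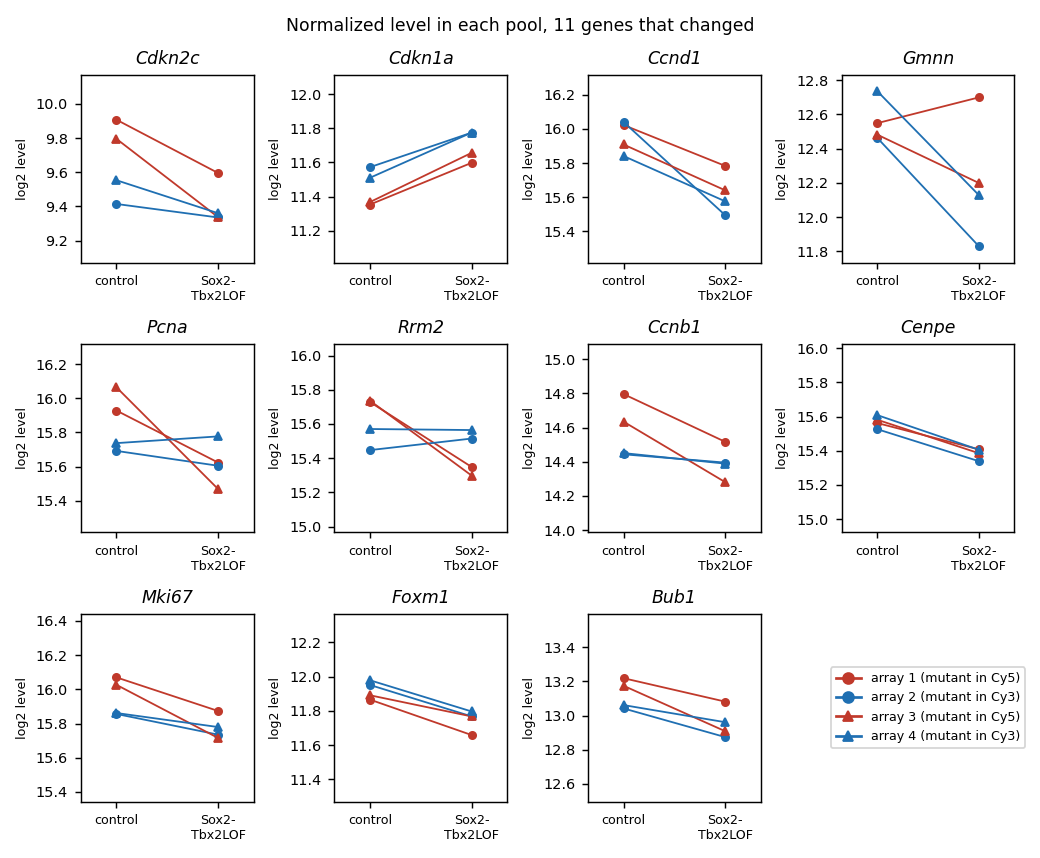
Normalized log2 level (y axis, each panel spanning the same 1.1 log2 units around its own centre) in the control and *Sox2-Tbx2LOF* pools of the 11 genes that changed, with a line joining the pools of 1 array. All 4 lines rise for *Cdkn1a* and fall for *Cdkn2c*, *Ccnd1*, *Ccnb1*, *Cenpe*, *Mki67*, *Foxm1* and *Bub1*, whereas *Gmnn*, *Pcna* and *Rrm2* each have 1 line that rises.

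Of the 12 replication genes, 3 fell, none rose and 9 did not pass. The ratios ranged from -0.34 to -0.03 with a median of -0.09, all below 0. *Gmnn* encodes geminin, which blocks licensing of origins after they have fired by binding CDT1. Its log2 ratios were 0.15, -0.63, -0.28 and -0.61 (mean -0.34 ± 0.37, SD, n = 4, chr13:24843715-24843774, mm9). It was higher in the mutant on array 1 and lower on the other 3, and fell in the test with a dye term (1.27-fold, SE 0.06, adjusted p = 0.0268). A further *Gmnn* probe had a ratio of -0.14 and did not pass (adjusted p = 0.105 in the test of single probes). Its position (chr13:24854006-24854065, mm9) is given on the opposite strand, so it may not read the same transcript.

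*Pcna* encodes the sliding clamp of DNA polymerases. Its ratios were -0.30, -0.09, -0.60 and 0.04 (mean -0.24 ± 0.28, SD, n = 4, chr2:132075022-132075054, mm9, adjusted p = 0.0458). *Rrm2*, a subunit of ribonucleotide reductase that supplies DNA precursors, had -0.38, 0.07, -0.44 and -0.01 (mean -0.19 ± 0.26, SD, n = 4, chr12:25398824-25398883, mm9, adjusted p = 0.0262). For both, the difference stood on arrays 1 and 3 (means -0.45 and -0.41), with the mutant in Cy5, and was near 0 on arrays 2 and 4 (means -0.02 and 0.03). The test takes the mean of the dye directions as the genotype and their difference as the dye, so the spread between arrays is wider than its SE for these genes.

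The helicase subunits *Mcm2* to *Mcm7*, which unwind DNA at the fork, had ratios between -0.14 (*Mcm6*) and -0.03 (*Mcm5*) and none passed. *Mcm5*, the highest of the group, had 0.04, -0.18, 0.00 and 0.03 (mean -0.03, SD 0.10, adjusted p = 0.788). *Mcm6*, whose E2F motifs are printed above, had -0.39 and -0.34 with the mutant in Cy5 and 0.11 and 0.07 with the mutant in Cy3 (mean -0.14, adjusted p = 0.0670). *Cdt1*, the licensing factor that geminin binds, had -0.14 (adjusted p = 0.0699), *Tk1* (thymidine kinase) -0.07 and *Cdc6*, which loads the helicase, -0.06. A dimmer *Cdc6* probe had -0.22 and passed in the test of single probes (adjusted p = 0.0205), whereas the brighter probe that stood for the gene did not.

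Of the 17 mitosis genes, 5 fell, none rose and 12 did not pass. All 17 mean ratios were below 0, from -0.27 to -0.04 with a median of -0.15, and 12 of 17 genes were below 0 on each of the 4 arrays. Of all 21042 tested genes, 3820 had the same sign on all 4 arrays, in either direction. *Cenpe*, a kinesin that moves chromosomes to the spindle equator, had the closest replicates, with log2 ratios of -0.15, -0.19, -0.20 and -0.20 (mean -0.19 ± 0.02, SD, n = 4, chr3:134936387-134936446, mm9). The level was 15.41, 15.34, 15.39 and 15.41 in the mutant pools and 15.56, 15.53, 15.58 and 15.61 in the control pools. The pools did not overlap (1.14-fold lower, SE 0.03, adjusted p = 0.0237). *Foxm1*, a transcription factor that activates genes of G2 and mitosis, had -0.21, -0.18, -0.12 and -0.18 (mean -0.17 ± 0.04, SD, n = 4, chr6:128324783-128324842, mm9, adjusted p = 0.0333). Its pools did not overlap either, at 11.66, 11.77, 11.77 and 11.80 in the mutant and 11.87, 11.95, 11.89 and 11.98 in the control. The pools overlapped for a further *Foxm1* probe, which had -0.14 and did not pass in the test of single probes (adjusted p = 0.190). With the mean over both probes the *Foxm1* call was lost (-0.15, adjusted p = 0.0645).

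*Mki67* encodes Ki-67, the common marker of cycling cells. Its ratios were -0.20, -0.12, -0.31 and -0.08 (mean -0.18 ± 0.10, SD, n = 4, chr7:142881591-142881650, mm9, adjusted p = 0.0366), and a further probe had -0.17 (adjusted p = 0.0684 in the test of single probes). *Ccnb1* encodes cyclin B1, the partner of CDK1, and had -0.28, -0.05, -0.35 and -0.06 (mean -0.19 ± 0.15, SD, n = 4, chr13:101548722-101548781, mm9, adjusted p = 0.0259). With this probe the lower value stood mainly on the arrays with the mutant in Cy5 (-0.32, against -0.06 with the mutant in Cy3). Both further *Ccnb1* probes ran the other way by dye, with 0.04 and 0.07 in Cy5 and -0.28 and -0.33 in Cy3, and neither passed in the test of single probes (means -0.12 and -0.13, adjusted p = 0.110 and 0.159). *Bub1*, a kinase of the spindle checkpoint, had -0.14, -0.17, -0.27 and -0.10 (mean -0.17 ± 0.07, SD, n = 4, chr2:127626988-127627047, mm9, adjusted p = 0.0498). It lay next to the threshold and passed in 3 of 14 alternatives. The test of single probes left *Pcna* and *Bub1* above the threshold.

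*Cdk1*, the kinase of mitosis itself, had the lowest mean of the group without passing, with -0.07, -0.30, -0.56 and -0.16 (mean -0.27 ± 0.21, SD, n = 4, adjusted p = 0.0798), and passed in 2 of 14 alternatives. Its further probes had -0.06 and -0.26 and did not pass either. *Plk1*, a kinase of spindle assembly, had the highest, with 0.08, -0.21, 0.02 and -0.08 (mean -0.04, SD 0.13, adjusted p = 0.582). *Ccna2* (cyclin A2) did not overlap between mutant and control pools but did not pass (mean -0.14, adjusted p = 0.112). Its probe lay 1.91 Mb from that of *Sox2*, the locus that carries CreERT2 in the mutant, and the other gene on chromosome 3, *Cenpe*, lay 100 Mb away. The remaining genes, *Aurka*, *Aurkb*, *Birc5*, *Bub1b*, *Ccnb2*, *Cdc20*, *Cenpa*, *Kif11* and *Top2a*, had mean ratios from -0.15 to -0.08. In the plot of levels by pool the lines of *Mki67*, *Bub1*, *Cenpe*, *Foxm1* and *Ccnb1* all fall, with slopes that differ from array to array.

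The level of a group in each pool was summarised as the mean log2 level of its genes. For mitosis it lay between 13.54 and 13.73 in the mutant and between 13.72 and 13.82 in the control pools, and was lower in the mutant on each array. For replication it lay between 14.45 and 14.62 and between 14.57 and 14.74. These ranges overlapped between genotypes, as did those of the CDK inhibitors (11.77 to 11.88 and 11.83 to 11.92) and of the G1 genes (13.68 to 13.78 and 13.74 to 13.89). For the E2F and RB family the mutant pools lay at 12.59 to 12.66 and the control pools at 12.67 to 12.72, without overlap.

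The dye direction bears on these values. In the plot of the dye directions, 31 of 49 genes had a mean ratio below 0 in both, 3 had one above 0 in both (*Cdkn1a*, *Cdkn1c* and *Cdk4*), and 15 had opposite signs. The largest gap between the directions was 0.56 (*Gmnn*). Of the 11 changed genes, 8 had the same sign on all 4 arrays, and *Gmnn*, *Pcna* and *Rrm2* had not. The 11 were picked by the test on these same arrays. Over all 21042 tested genes, changed or not, 3820 had the same sign on all 4.

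**Figure D3:**
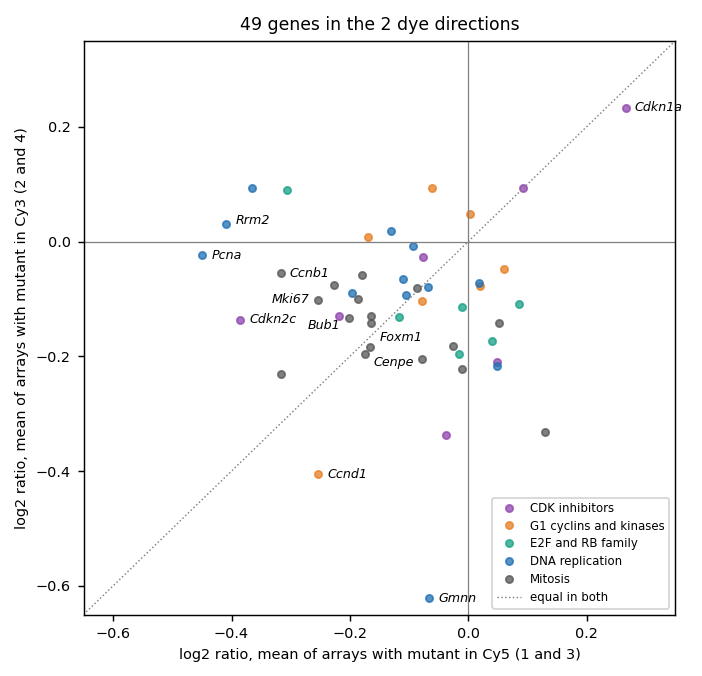
Mean log2 ratio of each of the 49 genes on the arrays with the mutant in Cy5 (x axis) and with the mutant in Cy3 (y axis), coloured by group, with the 11 changed genes named and a dotted line where both are equal. *Cdkn1a*, *Cenpe*, *Foxm1* and *Bub1* lie near the line, whereas *Gmnn*, *Pcna* and *Rrm2* lie far from it.

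Where a gene had several probes they had the same sign. Several probes were tested for 17 of the genes, and the mean ratios of a gene's probes lay on the same side of 0 for 17 of 17. Among these are the *Gmnn* probes, whose positions are given on opposite strands.

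No difference between female and male pools passed the test. The female minus male difference of the ratio ranged from -0.19 to 0.27. None of the 49 passed the limma test of this difference over all tested genes, in which 0% of the genes passed, and the lowest adjusted p was 1.00. At an unadjusted p below 0.05 there were 2 of 49 (4.08%, against 2.65% of all tested genes), *Cdkn2a* and *Cdkn2b*. The ratio of *Cdkn2a* was -0.06 in female and -0.29 in male pools, and that of *Cdkn2b* -0.05 and -0.32. With 2 arrays per sex the precision is low.

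Genes of the same processes outside the 50 also had ratios below 0 for the most part. Their lists too were chosen with earlier results of these data known. Of 30 other replication genes, 2 fell (6.67%, near the 5.18% of all tested genes that changed), none rose and 29 had a ratio below 0 (median -0.08). They were *Uhrf1*, which couples DNA methylation to replication (-0.33, -0.16, -0.18 and -0.20, adjusted p = 0.0208), and *Pole*, the catalytic subunit of DNA polymerase epsilon (-0.27, -0.05, -0.23 and -0.06, adjusted p = 0.0459). Of 38 other mitosis genes, 6 fell (15.8%), none rose and 38 had a ratio below 0 (median -0.13). Those that fell were the condensin subunits *Ncapg*, *Ncaph* and *Smc4*, which compact chromosomes, with mean ratios of -0.22, -0.20 and -0.20, the kinetochore protein *Spc25* with -0.20, the checkpoint protein *Mad2l1* with -0.19 and *Ect2*, which sets up cytokinesis, with -0.17. For these 6 the adjusted p ranged from 0.0162 (*Ncaph*) to 0.0402 (*Mad2l1*). Of 27 other tested cycle regulators, 1 fell (3.7%, below the share of all tested genes), none rose and 17 had a ratio below 0 (median -0.02). This was *E2f8*, an atypical E2F that represses transcription, with -0.24, -0.29, -0.31 and -0.32 (mean -0.29, adjusted p = 0.00360).

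Markers of other cell types moved in the same comparison. Of 13 tested neuronal markers 8 fell and 2 rose (median -0.36), and the mean level of the list was 9.95 to 10.19 in the mutant and 10.27 to 10.57 in the control pools. Of 10 markers of Schwann cell precursors, a dividing cell type, 3 fell (median -0.06), and the mean level was 10.85 to 10.91 against 11.05 to 11.22. Those that fell were *Foxd3* (-1.17), *Fabp7* (-1.03) and *Cdh19* (-0.63). Of 15 markers of cochlear duct epithelium 4 fell and 2 rose (median 0.02, mean level 13.90 to 13.97 against 13.95 to 14.03), of 10 mesenchymal markers 1 rose (median 0.11, 13.68 to 13.89 against 13.57 to 13.78), and of 7 melanocyte (median 0.04, 11.96 to 12.13 against 11.95 to 12.16) and 10 blood and endothelial markers (median 0.10, 11.49 to 11.74 against 11.45 to 11.63) none passed. Every listed marker was above background in at least 1 pool. The mean level did not overlap between mutant and control pools for the neuronal and Schwann cell precursor lists. The same held for the E2F and RB family, for the other replication genes (12.93 to 12.99 in the mutant and 13.02 to 13.10 in the control) and for the other mitosis genes (13.08 to 13.24 in the mutant and 13.24 to 13.31 in the control). Their part in the lower ratios of cell cycle genes was not tested.

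**Figure D4:**
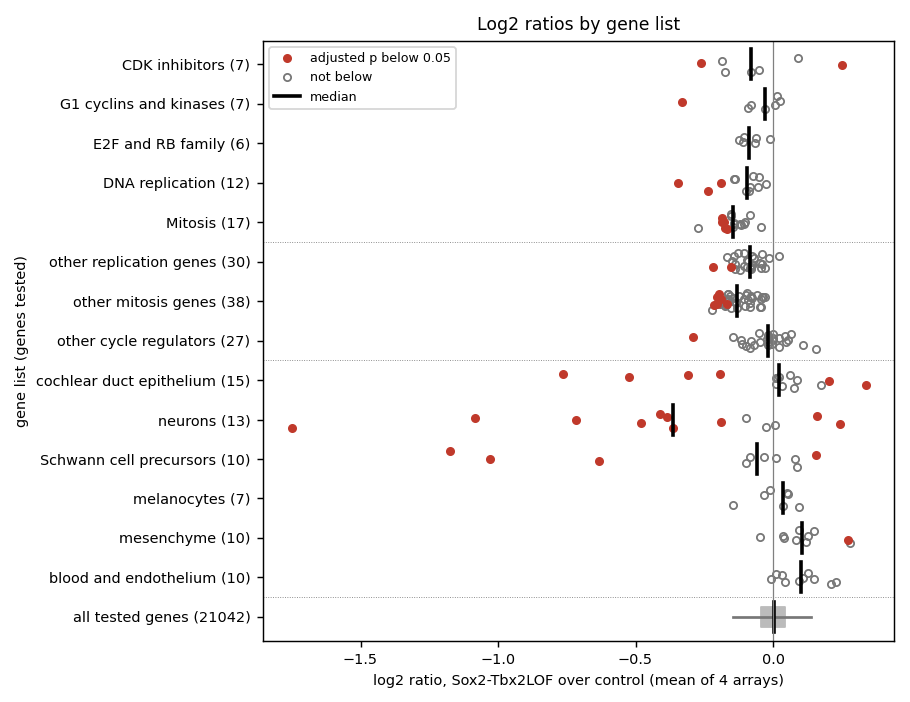
Mean log2 ratio of *Sox2-Tbx2LOF* over control (x axis) of each tested gene of 14 lists (y axis, genes tested in brackets), filled where the gene changed, with the median of each list as a black bar; for all tested genes the grey box spans percentiles 25 to 75 and the line percentiles 5 to 95. The medians of replication and mitosis genes lie between -0.15 and -0.08, that of neurons at -0.36 and those of mesenchyme and of blood and endothelium at 0.11 and 0.10.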

How the data were processed

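Total RNA of 8 duct pools (4 per genotype) was labelled from an input of 1000 ng and read on 4 arrays, 1 mutant and 1 control pool each. The authors scanned the arrays with Agilent Feature Extraction 10.7.3.1 and deposited its output, in which the intensity of each spot and of its local background is given for both dyes without normalization, beside a processed intensity that is background-subtracted and dye-normalized. The deposited log10 ratio of processed Cy5 over Cy3 was read only to check its direction. The authors' series value table holds a score per probe, read as the fold of mutant over control with a sign, whose normalization is not given in the sources used here. The header names another array design than the methods do, and probe names, gene symbols and mm9 positions were taken as the files give them. The exon or UTR that a probe lies in was not analysed here. All 4 arrays shared a slide and a scan.

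The rest was computed here with limma 3.58.1 in R 4.3.3. Mean signals were corrected with normexp (offset 50) and normalized by loess within each array, with control and flagged spots at weight 0. Unflagged spots of a probe (up to 4) were averaged. A probe was well above background in a measurement where at least 50% of its unflagged spots were, and was tested if this held in at least 4 of 8 measurements. Each gene was represented by its brightest tested probe. Ratios were turned to mutant over control by the dye labels and fitted with a genotype and a dye term (lmFit, eBayes), and p-values were adjusted by Benjamini-Hochberg over 21042 genes. The 2 residual degrees of freedom were combined with a prior of 5.65. SDs include the dye effect and SEs do not. Pool levels come from the separate channels after loess and Aquantile; levels are not compared between probes. The ratio pairs the pools of an array, so the separate channels with the array as replicate block gave the same 11 calls. The script was tested on simulated data. The number of arrays limits the precision, and as pools are separate sets of ducts the spread holds both animals and technique.

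The genes and the lists were chosen with earlier results of these data known. Values on every array are given for the 7 CDK inhibitors, each gene with an adjusted p below 0.05 and the highest and lowest of each other group; the rest are given by counts, ranges and means. Alternatives were processed signals, an offset of 10, median centring, other filters on dim probes, no dye term, separate channels, the mean over probes, single probes, the value table, each array left out and each sex alone. Promoter sequences were RefSeq's for GRCm38.p6, a build other than that of the array, and were matched by symbol. The result of 1 marker gene is not reported here.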

Additional observations from a re-analysis of the deposited data

Results flagged for a closer look

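Among the 22 genes given array by array, 2 had an array far from the other 3 by Dixon's test. *Ccnd1* had a log2 ratio of -0.55 on array 2 (female pools, mutant in Cy3), where the other arrays lay between -0.27 and -0.24. *Mcm5* had -0.18 on array 2, where the others lay between 0.00 and 0.04. Over all 49 genes 6 were marked in this way, and chance marks about 1 in 20.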

How the results depend on the processing

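The count of changed genes was 11 (1 higher, 10 lower) and stayed within 1.5 times of that with an offset of 10 (8), median centring (12), no filter (9), a filter of all 8 measurements (10), the mean over probes (10) and the replicate block on separate channels (11, the same pairing as the ratio); *Cdkn1a* was the gene that rose in each of these. It was 3 with processed signals (2 lower), 1 without the dye term (0 lower), 1 with the value table (0 lower) and 0 with unpaired channels and no replicate block (0 higher, 0 lower; 19 at an unadjusted p below 0.05). Leaving out 1 array gave 0 to 5 changed genes, 0 to 1 higher and 0 to 4 lower. A fit of 3 arrays leaves fewer degrees of freedom. Over all tested genes 411, 1278, 445 and 695 changed without array 1, 2, 3 and 4, against 1091 with all arrays. The cause was not tested. The median ratio of the G1 group was between -0.063 and 0.037 with 1 array left out and -0.084 on the female arrays, while the medians of the other 4 groups moved by less than the spread between arrays in 17 of 17 alternatives. Of these, no dye term, separate channels and other filters leave the ratio of each tested gene as it is. No gene given by name was called with opposite signs. No alternative brought a gene of the 49 to a fold of 1.5 with an adjusted p below 0.05 (value 0 throughout). The sex difference stayed at 0 genes without a filter and with processed signals. Folds of dim genes are compressed by the offset, and *Ccne2* was too near background to be tested.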
